A study of Mus musculus with 28 samples.

Results

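Reactive astrocyte genes are the genes that astrocytes switch on or raise when neural tissue is injured or inflamed. The 10 described here are Gfap, Vim, Serpina3n, Aspg, Cd44, S1pr3, Osmr, Lcn2, Steap4 and Cp, taken by gene name from a count table of 25900 genes. They were followed in frontal cortex of mice aged 20 months on a C57BL/6 background that carried a knock-in of the Q331K substitution in Tardbp, which encodes TDP-43, a protein that binds RNA, and the substitution is known from amyotrophic lateral sclerosis. PolyA RNA was sequenced in 10 libraries with the allele on both chromosomes (Q331K/Q331K, called HOM), 10 with 1 mutant and 1 normal allele (Q331K/+, called HET) and 8 with 2 normal alleles (+/+, called WT). The allele is present in all cells of the animal, not in astrocytes alone, and the labels give no sex, litter or batch. Libraries are numbered in the labels, which do not state whether a separate mouse gave each one. The p-values rest on how these libraries scatter, which may be technical.

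Astrocytes respond to damage by enlarging their processes and raising the intermediate filament proteins GFAP and vimentin. In mice a shared set of reactive genes, found after both ischaemia and systemic inflammation, includes all 10 genes described here. Part of this response runs through cytokines of the interleukin-6 family, among them oncostatin M, whose receptor subunit is encoded by Osmr, and through the transcription factor STAT3. None of the 10 is restricted to astrocytes: Vim is also made by fibroblasts, endothelial cells and ependymal cells, Cd44 by immune cells, and Cp by leptomeningeal cells.

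Total counts were 30460746 to 62617027 reads in HOM, 45049064 to 74907712 in HET and 46549074 to 64080942 in WT. Of the 10 genes, 9 passed the filter on low counts and were tested, and Lcn2 did not pass. Levels are in CPM, the reads of a gene scaled to a common library total by TMM, with the SD between libraries. Differences were tested with edgeR's quasi-likelihood test in 1 fit of all 28 libraries, with p-values adjusted by Benjamini-Hochberg over the 16110 genes tested and a threshold of 0.05. Summed markers of neurons stood between 11790 and 13730 CPM and of astrocytes between 10310 and 13040 CPM over all libraries. HOM 3 stood apart from the others in the first principal component (27.94, the next library 12.47, with WT 6 at the other end at -24.16) and in several of the genes below, and HET 4 did so in the HET group for some of them, so results that rest on HOM 3 are also given without it.

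Setting HOM against WT shows the state of these genes with both alleles mutant. Aspg, Vim and Cp rose in HOM, Vim and Cp only narrowly, and 0 of the 9 tested genes fell. Among all genes tested 7.61% were called, 3.9% higher and 3.71% lower. All 9 genes had a log2 fold change above 0, as did 52.3% of all genes, and their median log2 fold change was 0.26, against 0.00502 over all genes tested. These genes were picked with earlier results of these libraries known, so the count and the median describe them and give no independent evidence that the set changed. In bulk tissue, more cells of a type and more RNA per cell cannot be told apart.

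**Figure D1:**
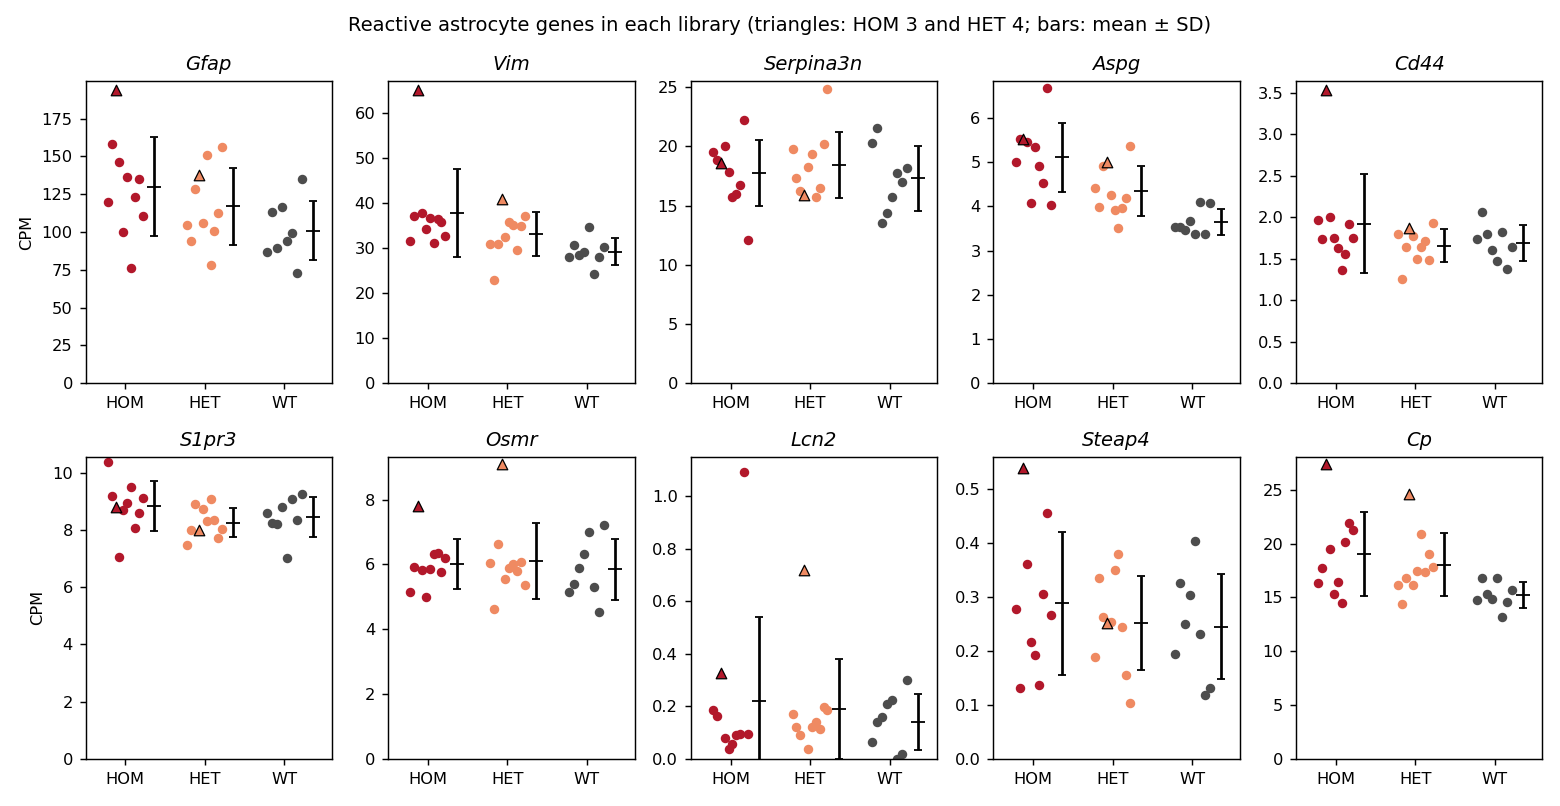
CPM of the 10 genes in each library (points), by genotype, with the mean and SD beside each group; triangles mark HOM 3 and HET 4, and SD bars that reach below 0 are clipped. Aspg was higher than the highest WT library in 8 HOM libraries, while HOM 3 alone reached 64.9 CPM of Vim and 3.53 CPM of Cd44.

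Aspg encodes an asparaginase, an enzyme that splits asparagine into aspartate and ammonia. It ran from 4.03 to 6.67 CPM in HOM with a median of 5.17, from 3.51 to 5.36 in HET with a median of 4.22, and from 3.38 to 4.10 in WT with a median of 3.53. In HOM 8 of 10 libraries exceeded every WT library, and the groups overlapped in HOM 5 and HOM 10, which fell among the highest WT values. The means were 5.11 ± 0.789 CPM in HOM (SD, n = 10) and 3.64 ± 0.290 CPM in WT (SD, n = 8). On the log2 scale HOM was higher by 0.49, with a 95% interval of 0.31 to 0.66 (SE 0.09, adjusted p = 0.00121 by edgeR). It ranked 50 among all genes by p. The call held when each of the 28 libraries was left out in turn, with log2 fold changes of 0.43 to 0.52 and edgeR adjusted p of 0.000452 to 0.00389, the lowest fold coming without HOM 9. Aspg lies on the plus strand of chromosome 12, from 112106683 to 112127573 (ENSMUSG00000037686, GRCm38).

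The stretches before the start sites of Aspg, Gfap and Cp are shown because Aspg and Cp were called in HOM and Gfap was the member that varied most closely with Aspg between libraries, as given further on. They come from RefSeq on GRCm38.p6, which held a window for each of the 10 genes, 250 bases before to 50 after the start, and Gfap there starts 3712 bases from the end of the deposited gene. Each is printed in the direction of transcription, up to the RefSeq start or the first exon annotated within its window, whichever comes first. The stretch of Gfap lies inside the deposited gene.
Aspg, chr12:112106433-112106678, plus strand: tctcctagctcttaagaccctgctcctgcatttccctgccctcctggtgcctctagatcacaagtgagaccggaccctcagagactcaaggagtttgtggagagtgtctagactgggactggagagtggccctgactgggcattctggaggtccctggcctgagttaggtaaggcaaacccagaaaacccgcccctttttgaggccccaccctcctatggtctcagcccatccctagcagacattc
Gfap, chr11:102897201-102897450, minus strand: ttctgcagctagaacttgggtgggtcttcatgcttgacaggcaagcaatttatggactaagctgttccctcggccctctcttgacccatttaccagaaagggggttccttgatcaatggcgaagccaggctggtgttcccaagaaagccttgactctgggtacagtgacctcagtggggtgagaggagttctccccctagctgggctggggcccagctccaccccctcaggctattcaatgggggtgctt
Cp, chr3:19956804-19957053, plus strand: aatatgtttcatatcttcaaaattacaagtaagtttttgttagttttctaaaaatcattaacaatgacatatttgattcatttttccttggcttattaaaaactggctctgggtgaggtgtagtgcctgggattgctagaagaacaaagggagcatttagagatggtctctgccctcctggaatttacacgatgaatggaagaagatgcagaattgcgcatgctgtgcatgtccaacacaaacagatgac

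Both strands of the whole 300-base windows were searched for TTCNNNGAA, the letters that STAT factors bind, and for TATAAA, the letters of a TATA box; the 2 do not overlap in any of these windows. TTCNNNGAA was found in 2 of the 10 genes, Gfap and Steap4, and in 8.3% of the 32851 RefSeq windows. The matches are shown in capitals with 10 bases on each side.
Gfap, chr11:102897184-102897212, minus strand: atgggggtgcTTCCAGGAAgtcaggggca
Steap4, chr5:7960346-7960374, plus strand: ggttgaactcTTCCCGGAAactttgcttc
The match in Gfap spans the annotated start, from position -2 to 7, and that in Steap4 lies from position -116 to -108, counted from the start site. TATAAA was found in Vim and Steap4 and in 13.6% of all windows. Windows of Aspg and Cp held neither run of letters, which says nothing of factors that bind elsewhere, and a match is not a binding site.

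Of the intermediate filament genes Vim was called and Gfap was not. Vim encodes vimentin (chromosome 2, 13573927 to 13582826, plus strand). It ran from 31.1 to 64.9 CPM in HOM with a median of 36.1, from 22.9 to 40.9 in HET with a median of 33.6, and from 24.2 to 34.8 in WT with a median of 28.7. The lowest HOM library exceeded 7 of the 8 WT libraries, and only WT 5 reached into the HOM range. The mean was 37.8 ± 9.82 CPM in HOM (SD, n = 10) and 29.1 ± 3.00 CPM in WT (SD, n = 8), higher by 0.38 on the log2 scale (SE 0.12, adjusted p = 0.0457 by edgeR). HOM 3 stood at 64.9 CPM and the next HOM library at 37.7, and without HOM 3 the log2 fold change was 0.25 (SE 0.08, edgeR adjusted p = 0.051). The adjusted p was close to the threshold, and the call was kept in 8 of 28 fits that left out 1 library, those without HOM 1, 7, 8 or 10, HET 2, 4 or 10, or WT 5.

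Gfap encodes the glial fibrillary acidic protein that defines the reactive astrocyte in histology (chromosome 11, 102887336 to 102900912, minus strand). It ran from 76.0 to 194 CPM in HOM with a median of 129, from 78.2 to 156 in HET with a median of 109, and from 73.2 to 135 in WT with a median of 96.7. The groups overlapped over most of their range, though 5 HOM libraries lay above the highest WT library. Its log2 fold change of HOM over WT, 0.36 (SE 0.15, 95% interval 0.05 to 0.68), was close to that of Vim but did not pass (edgeR adjusted p = 0.140). Between libraries its coefficient of variation was 25.03% in HOM and 19.4% in WT, that of Vim was 25.98% in HOM and 10.3% in WT, and that of Aspg was 15.4% in HOM and 7.95% in WT. Without HOM 3 the log2 fold change was 0.28 (edgeR adjusted p = 0.245).

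Cp encodes ceruloplasmin, a copper-carrying ferroxidase that helps cells export iron (chromosome 3, 19957054 to 20009145, plus strand). It ran from 14.5 to 27.4 CPM in HOM with a median of 18.6, from 14.4 to 24.6 in HET with a median of 17.4, and from 13.2 to 16.8 in WT with a median of 15.1. In HOM 6 of 10 libraries lay above the highest WT library and the other 4 lay within the WT range. The mean was 19.1 ± 3.87 CPM in HOM (SD, n = 10) and 15.2 ± 1.19 CPM in WT (SD, n = 8), higher by 0.33 on the log2 scale (SE 0.10, adjusted p = 0.0494 by edgeR). That lay just inside the threshold: the call was kept in 6 of 28 fits that left out 1 library, those without HOM 1, 5, 6 or 7 or HET 2 or 4, and without HOM 3 the log2 fold change was 0.25 (edgeR adjusted p = 0.090). About 1.13% of the exon bases of Cp in GENCODE vM21 overlap Hps3 on the other strand, and the strand setting of the counting is not given in the sources used here.

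Steap4, a metalloreductase that reduces iron and copper at membranes, was near the detection limit, at 4 to 33 reads in HOM, 5 to 25 in HET and 6 to 25 in WT. Its levels were 0.288 ± 0.132 CPM in HOM (SD, n = 10) and 0.244 ± 0.0973 CPM in WT (SD, n = 8). The 95% interval of its log2 fold change, -0.28 to 0.79, holds both 0 and the value of Aspg (edgeR adjusted p = 0.580).

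The receptor genes did not pass. Osmr, the oncostatin M receptor subunit, stood at 6.02 ± 0.772 CPM in HOM (SD, n = 10), 6.11 ± 1.17 in HET (SD, n = 10) and 5.85 ± 0.939 in WT (SD, n = 8), and HOM over WT was 0.04 on the log2 scale (95% interval -0.17 to 0.25, edgeR adjusted p = 0.839). S1pr3, a receptor of sphingosine 1-phosphate, stood at 8.83 ± 0.878 CPM in HOM and 8.45 ± 0.691 in WT, with a log2 fold change of 0.06 (95% interval -0.05 to 0.18, edgeR adjusted p = 0.529). These intervals leave out the fold of Aspg. Cd44, the hyaluronan receptor, stood at 1.92 ± 0.598 CPM in HOM and 1.69 ± 0.213 in WT, and its log2 fold change of 0.19 (edgeR adjusted p = 0.377) was 0.04 without HOM 3, which alone reached 3.53 CPM where the next HOM library had 2.01.

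Of the secreted acute-phase genes, Serpina3n was not called and Lcn2 was not tested in the main fit. Serpina3n encodes a serine protease inhibitor and had, with Gfap and Vim, the highest levels per kilobase. It ran from 12.1 to 22.2 CPM in HOM with a median of 18.2, from 15.7 to 24.9 in HET with a median of 17.8, and from 13.5 to 21.5 in WT with a median of 17.4. The 3 groups overlapped over most of their range, and HOM over WT was 0.04 on the log2 scale (95% interval -0.17 to 0.25, edgeR adjusted p = 0.868). Serpina3n lies in a cluster of similar genes to which reads could be assigned wrongly. The 9 relatives in the table summed to at most 0.414 CPM in any library, so few reads were assigned to them.

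Lcn2, which encodes the iron-siderophore carrier lipocalin 2, is among the genes that rise most after acute inflammation. Here it had 2 to 60 reads in HOM, 2 to 40 in HET and 0 to 16 in WT, and the median was 0.0957 CPM in HOM, 0.132 in HET and 0.150 in WT. HOM 3 and WT 8 reached 0.325 and 0.301 CPM, and only HOM 9 at 1.09 CPM and HET 4 at 0.719 CPM stood above that. It was too low to be tested. The library highest in Lcn2, HOM 9, was also the highest HOM library in Aspg and Serpina3n, while HOM 3 was highest in Gfap, Vim, Cd44, Osmr, Steap4 and Cp.

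HET against WT gives the state with a single mutant allele, and uses the same WT libraries as HOM against WT. None of the 9 tested genes passed by edgeR: the count was 0, as it was over all genes, where 0% were called (1547 genes, 9.6%, had an unadjusted p under 0.05, and DESeq2 called 12 genes, 0 of the members). Aspg had 4.35 ± 0.572 CPM in HET (SD, n = 10) and 3.64 ± 0.290 in WT (SD, n = 8), with 6 of 10 HET libraries beyond the highest WT library and 0.26 on the log2 scale (SE 0.09, adjusted p = 0.406 by edgeR). Cp had 18.1 ± 2.89 CPM in HET and 15.2 ± 1.19 in WT, 0.24 on the log2 scale (SE 0.10, adjusted p = 0.465 by edgeR). These 2 were the members with an unadjusted p under 0.05. Vim and Gfap stood at 0.18 and 0.21 on the log2 scale (edgeR adjusted p = 0.614 and 0.653), while Cd44, S1pr3, Osmr, Serpina3n and Steap4 lay between -0.03 and 0.09.

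The direct comparison of HOM with HET asks what the second mutant allele adds. Again 0 of the 9 genes passed by edgeR, against 0.0372% of all genes in either direction (6 genes, and 1375 at an unadjusted p under 0.05), and DESeq2 called 0 of the 9 and 40 genes in all. Aspg, at 5.11 ± 0.789 CPM in HOM and 4.35 ± 0.572 CPM in HET (SD, n = 10 each), stood at 0.23 on the log2 scale (SE 0.08, adjusted p = 0.387 by edgeR) and was the only member with an unadjusted p under 0.05, as 8.54% of all genes had. Its HET mean lay between those of HOM and WT, but neither step passed by itself. Cp differed least between HOM and HET among the 3 genes called in HOM, at 0.08 (95% interval -0.11 to 0.28), and Vim stood at 0.20 (95% interval -0.02 to 0.42).

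**Figure D2:**
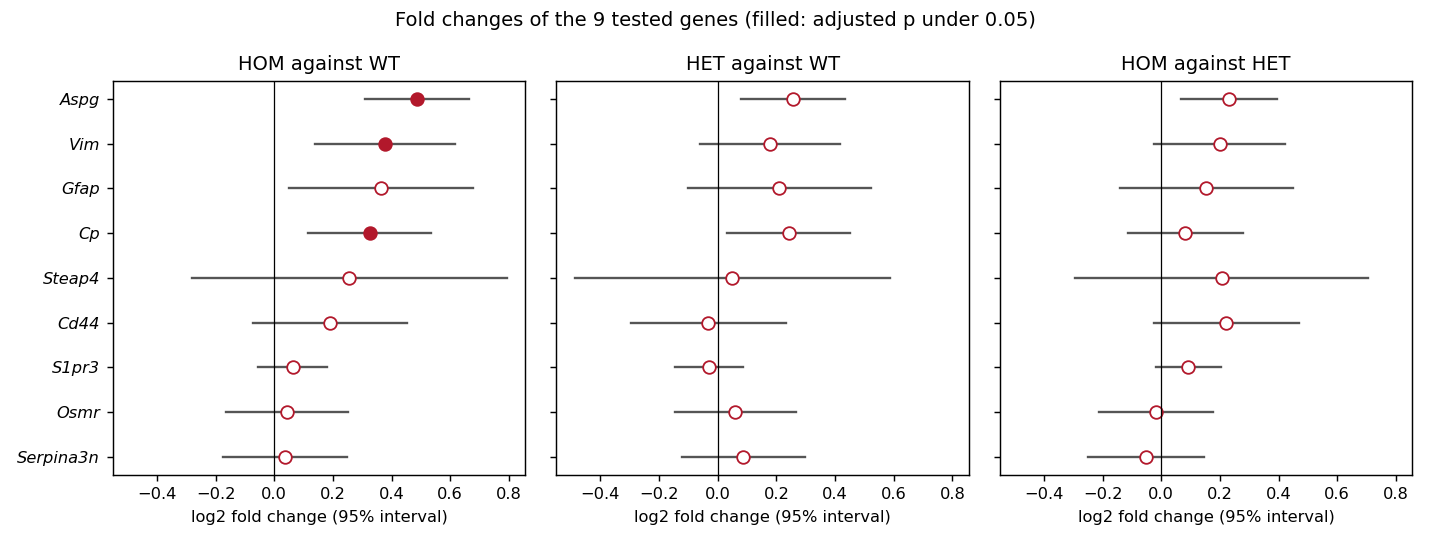
Log2 fold changes of the 9 tested genes (points) with 95% intervals (lines) in each comparison, filled where the edgeR adjusted p was under 0.05. Aspg, Vim and Cp are filled in HOM against WT and no gene is filled in the other comparisons, where Aspg stood at 0.26 and 0.23.

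Levels between genes are compared per kilobase of exon, in CPM per kb, in the WT libraries (n = 8). Gfap was highest at 23.9 ± 4.65 CPM per kb (SD), followed by Serpina3n at 8.39 ± 1.34 and Vim at 6.14 ± 0.632, and the ranges of Serpina3n and Vim overlapped. S1pr3 at 1.89 ± 0.155 and Cp at 1.59 ± 0.125 also overlapped, and Aspg at 1.03 ± 0.0822 lay below both. Osmr had 0.483 ± 0.0775, Cd44 0.250 ± 0.0315, Steap4 0.0774 ± 0.0309 and Lcn2 0.0533 ± 0.0403 CPM per kb, and of these Steap4 and Lcn2 overlapped. Aspg, the member with the smallest p in HOM against WT, was thus the sixth of the 10 in level.

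The genes did not vary between libraries as 1 block. With genotype means removed from log2 CPM, the median Pearson r over the 36 pairs of tested genes was 0.273 (28 libraries). Correlations are descriptions without a test, since all values share the scaling of their library. Vim and Cp were the most alike (r = 0.789, Spearman rho = 0.691), followed by Vim and Cd44 (r = 0.678, rho = 0.255), a relation that rested on HOM 3 (r = 0.318 without it). Osmr followed Cp (r = 0.658) and Vim (r = 0.647). Aspg followed Gfap (r = 0.612, rho = 0.662, and r = 0.609 without HOM 3) and Serpina3n (r = 0.505), and less closely Vim (r = 0.250) and Cp (r = 0.182). Gfap followed genes of both kinds, with an r of 0.592 with Vim, 0.571 with Cd44, 0.457 with Cp, 0.435 with Osmr and 0.367 with Serpina3n. Without HOM 3 its r was 0.479 with Vim, 0.449 with Cd44, 0.318 with Cp, 0.339 with Osmr and 0.367 with Serpina3n. S1pr3 had an r of at most 0.000435 with any other member.

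**Figure D3:**
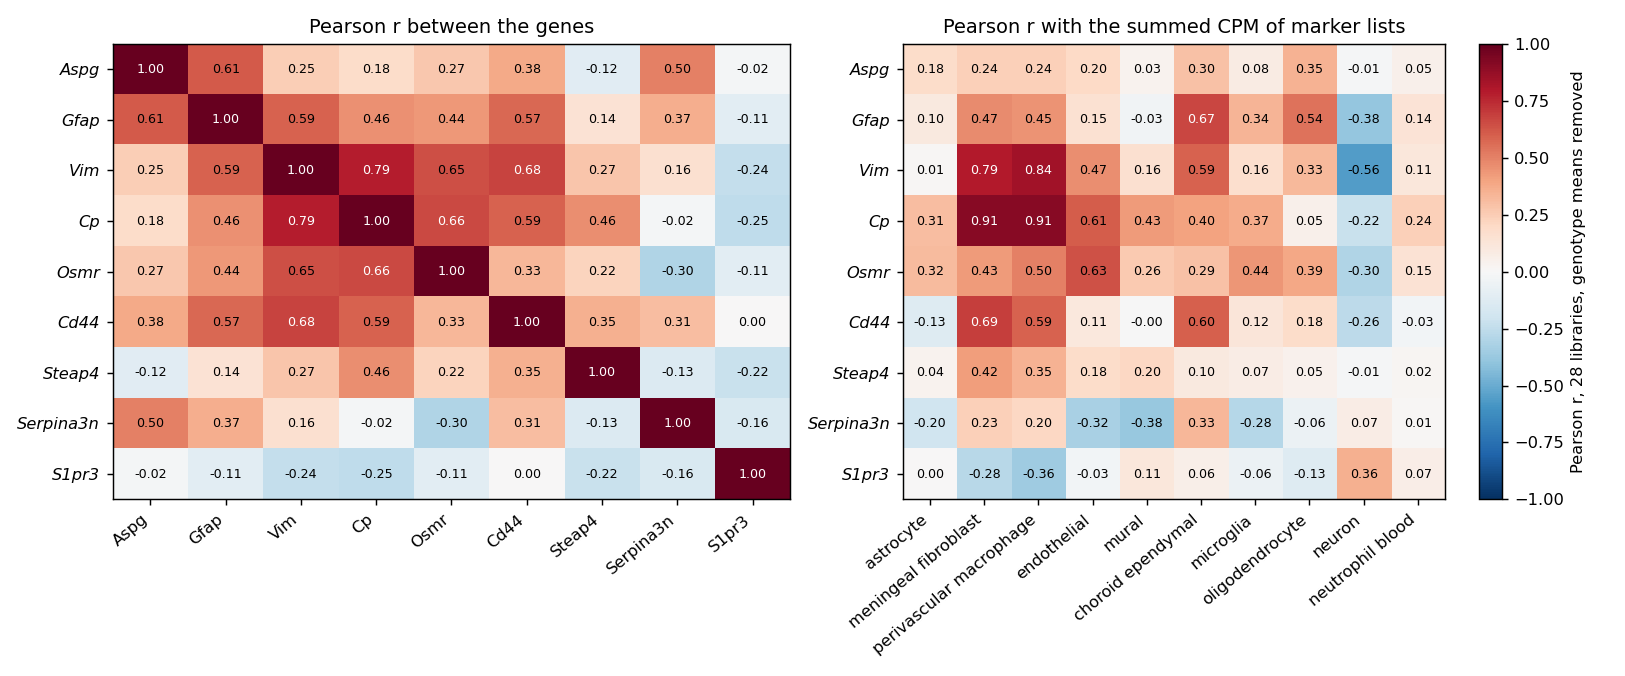
Pearson r over 28 libraries of log2 CPM with genotype means removed, between the 9 tested genes (left) and between each gene and the log2 summed CPM of marker lists (right). Cp and Vim reached 0.91 and 0.79 with meningeal fibroblast markers, and Aspg 0.24.

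Markers of neighbouring cell types moved with some of the genes. The 16 meningeal fibroblast markers summed to 324 to 1371 CPM in HOM with a median of 582, 381 to 957 in HET with a median of 563, and 271 to 593 in WT with a median of 446, with the highest HOM value in HOM 3 and the highest HET value in HET 4. Of the 15 of these markers tested, 3 were called higher in HOM than in WT and 0 lower. The 3 were Col1a1, Fn1 and Igfbp2 (edgeR adjusted p = 0.0311, 0.0494 and 0.0377). Over all genes tested 3.9% were called higher and 3.71% lower. The median log2 fold change of the 15 markers was 0.59. Dpep1 was at 0 in 27 of 28 libraries, and the other 15 were counted in every library. Cp followed this sum closely (r = 0.907, rho = 0.828, and r = 0.851 without the 2 libraries farthest from its median). Ptgds, which oligodendrocytes also make, supplied 68% of the sum, and without it the r of Cp was 0.929. Vim also followed the sum (r = 0.792, rho = 0.623, and r = 0.651 without the 2 farthest libraries). The 7 markers of perivascular macrophages, at 5.74 to 25.6 CPM in HOM, 5.99 to 18.7 in HET and 4.24 to 10.3 in WT, gave an r of 0.911 with Cp and 0.837 with Vim. The part of the meningeal and perivascular cells in the differences of Cp and Vim was not tested.

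Aspg followed these markers less closely. Its r was 0.239 with the meningeal sum, 0.237 with perivascular macrophages and 0.198 with the 13 endothelial markers. With mural markers it was 0.0327, and 0.525 without the 2 libraries farthest from their median. Of the cell type lists, oligodendrocyte markers gave Aspg its highest r, 0.346 (rho = 0.395). Of all lists, that of hyaluronan genes and CD44 partners did, at 0.618 (rho = 0.459, and r = 0.377 without the 2 farthest libraries). Most of that sum came from CD44 partners: it averaged 235 CPM in WT, with Rdx at 87.3, Ezr at 85.3 and Msn at 34.1. Its first place held for Pearson r alone. The list of the interleukin-6 family and JAK-STAT signalling gave 0.537 (rho = 0.474, and r = 0.436 without the 2 farthest libraries). The part of any of these cell types in the difference of Aspg was not tested. Osmr had its highest r with endothelial markers (0.635, and 0.648 without HOM 3). Gfap had its highest r with choroid plexus and ependymal markers (0.671), whose sum was also highest in HOM 3. Without HOM 3 that r was 0.591, beside 0.594 with the list of iron and copper genes. Without the 2 farthest libraries it was 0.537, and with oligodendrocyte markers also 0.537. The choroid plexus and ependymal markers summed to 9.96 to 23.9 CPM in HOM, 9.63 to 13.9 in HET and 9.84 to 18.02 in WT. Of those 11 markers 10 were tested and 0 passed in HOM against WT, where 7.61% of all genes did. Their median log2 fold change was 0.29, with Rarres2 at 0.30 and Ccdc153 at 1.296 (edgeR adjusted p = 0.135 and 0.225). The general astrocyte markers gave an r of 0.308 with Cp, 0.185 with Aspg, 0.101 with Gfap and 0.0108 with Vim. Without HOM 3 these were 0.542 for Cp, 0.235 for Aspg, 0.233 for Gfap and 0.294 for Vim.

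**Figure D4:**
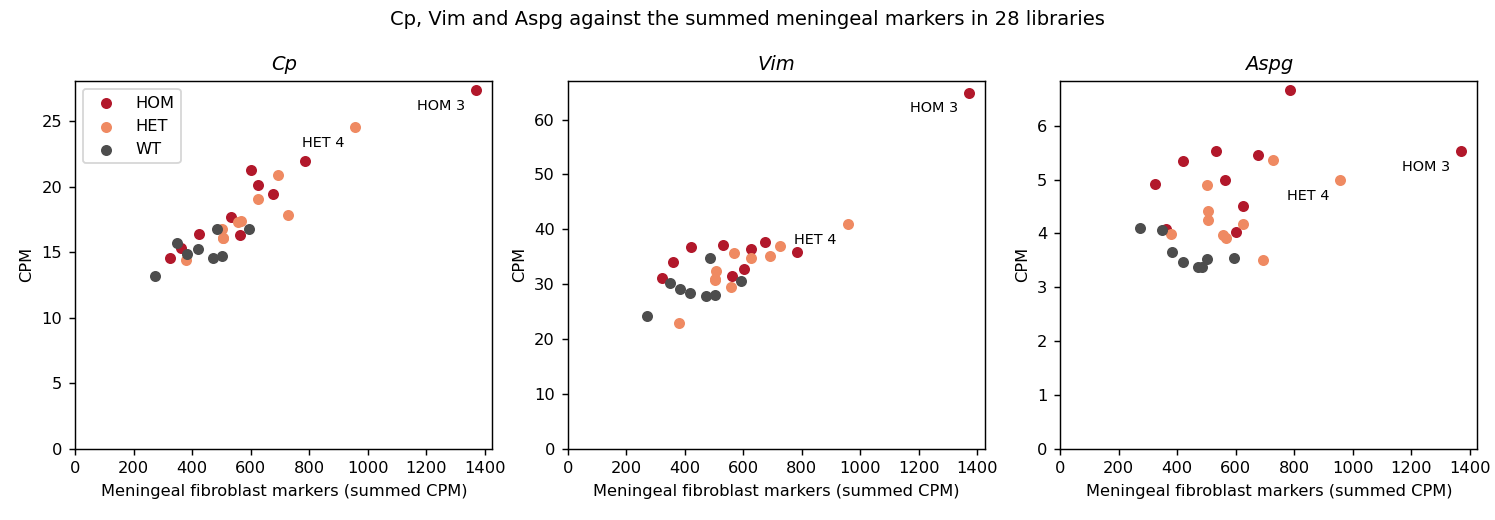
CPM of Cp, Vim and Aspg against the summed CPM of 16 meningeal fibroblast markers in each library, coloured by genotype. Cp is higher where the markers are higher, up to 27.4 CPM in HOM 3 at 1371 CPM of markers. In HOM, Aspg was lowest in HOM 10 (4.03 CPM, 602 CPM of markers) and highest in HOM 9 (6.67 CPM, 784 CPM of markers). HOM 3 had 5.53 CPM of Aspg.

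For each tested member the 3 most similar genes outside the set were sought among 13923 genes of at least 1 CPM, by Pearson r over 28 libraries with genotype means removed. Those of Gfap were Gsn (r = 0.763), which encodes the actin-severing gelsolin, the protease inhibitor gene A2m (r = 0.752) and the complement gene C4b (r = 0.720). Those of Aspg were Olig1 (r = 0.740), a transcription factor gene of the oligodendrocyte lineage, Rassf4 (r = 0.692) and Megf11 (r = 0.688). Those of Cp included the amino acid transporter gene Slc6a20a (r = 0.943) and the complement inhibitor gene Serping1 (r = 0.928). Those of Vim were the fibronectin gene Fn1 (r = 0.890), Stab1 (r = 0.856) and Aebp1 (r = 0.853).

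Cd44 was most like Thsd4 (r = 0.838), Htra3 (r = 0.795) and Tgfbi (r = 0.791), which fell to 0.648, 0.636 and 0.573 without HOM 3. Osmr was most like Gpr124 (r = 0.814), Nostrin (r = 0.789) and the laminin gene Lamc1 (r = 0.786). Serpina3n was most like Large (r = 0.800), Mmp17 (r = 0.765) and the sorting receptor gene Sorl1 (r = 0.757). S1pr3 was most like Neu2 (r = 0.763), Barx2 (r = 0.738) and Ndufa4l2 (r = 0.696), and Steap4 was most like Ikbke (r = 0.730), Prrx1 (r = 0.697) and Slc22a8 (r = 0.654). Apart from Fn1 and Serping1, none of the genes named here as most alike was on a list used here.

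Other genes of the reactive programme mostly stood higher in HOM without passing. The remaining pan-reactive genes Hspb1, Timp1 and Cxcl10 had 0 of 3 called (background 7.61% in either direction) and a median log2 fold change of 0.42, with the small heat shock protein gene Hspb1 at 5.54 ± 1.70 CPM in HOM and 4.14 ± 0.634 in WT (edgeR adjusted p = 0.144). Of 12 genes of the panel known from neuroinflammation 0 were called, with a median of 0.15, and the complement inhibitor gene Serping1 stood at 0.62 (edgeR adjusted p = 0.114) and the granule proteoglycan gene Srgn at 0.22 (edgeR adjusted p = 0.0865). Of 12 genes of the panel known from ischaemia 9 were tested and 0 were called, with a median of 0.15, Cd109 at 1.01 (edgeR adjusted p = 0.0909) and Emp1 at 0.50 (edgeR adjusted p = 0.111). By DESeq2 1 gene of the ischaemia panel, Cd109, was called.

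RNA of the cytokine pathway genes was, at the median, close to level between HOM and WT, and signalling itself was not measured. Among 14 tested genes of the interleukin-6 family, its receptors and JAK-STAT signalling 1 was called, Stat3. That is 7.14%, near the 7.61% of all genes tested, and the median log2 fold change was -0.00162. Between libraries, the r of the summed list ran from -0.270 with S1pr3 to 0.644 with Vim. It was 0.537 with Aspg and 0.539 with Gfap. Stat3 stood at 55.4 ± 1.68 CPM in HOM (SD, n = 10) and 52.0 ± 1.83 in WT (SD, n = 8), 0.09 on the log2 scale (SE 0.03, adjusted p = 0.037 by edgeR). It was not called without a count filter, with only the 2 genotypes in the fit, without WT 6 and HOM 3 or without HOM 1 and HOM 2. The intermediate filament partners had 0 of 6 called and a median of -0.01, with the lamin gene Lmna at -0.11 and the desmin gene Des at 0.28 (edgeR adjusted p = 0.102 and 0.161).

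Among partners of the receptors, the sphingosine 1-phosphate list had 1 of 10 genes higher, the receptor gene S1pr4 (0.70, SE 0.21, edgeR adjusted p = 0.0358, at 0.410 CPM in HOM and 0.254 in WT), and 1 lower, the phosphatase gene Sgpp1 (-0.13, edgeR adjusted p = 0.027). Neither was called without WT 6 and HOM 3. The hyaluronan list had 1 of 11 genes higher, Msn, which links CD44 to actin, at 40.7 ± 3.05 CPM in HOM and 34.1 ± 1.46 in WT (0.25, SE 0.04, edgeR adjusted p = 0.000288), above every WT library in 9 of 10 HOM libraries. Among 17 iron and copper genes 2 were higher, the metallothionein gene Mt3 (0.19, edgeR adjusted p = 0.0412) and the ferritin light chain gene Ftl1 (0.10, edgeR adjusted p = 0.0469). The transferrin receptor gene Tfrc was lower (-0.17, edgeR adjusted p = 0.0451). Without WT 6 and HOM 3, 0 of these 3 were called. The share called was 20% of the sphingosine list, 9.09% of the hyaluronan list and 17.6% of the iron and copper genes. Over all genes tested it was 7.61%.

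General astrocyte markers had 4 of 21 genes higher and 0 lower in HOM (3.9% and 3.71% of all genes tested), with a median of 0.10. Gja1, which encodes the gap junction protein connexin 43, stood at 209 ± 12.2 CPM in HOM (SD, n = 10) and 181 ± 8.37 in WT (SD, n = 8), 0.21 on the log2 scale (adjusted p = 0.000455 by edgeR), with all 10 HOM libraries above all 8 WT libraries, as held for 0.236% of all genes tested. The water channel gene Aqp4 (0.28), Mlc1 (0.15) and the glutamine synthetase gene Glul (0.15) also rose (edgeR adjusted p = 0.00638, 0.00667 and 0.029).

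Other marker lists in HOM against WT are given by their counts, beside 3.9% higher and 3.71% lower over all genes tested. Higher were 4 of 13 endothelial markers (Cdh5, Itm2a, Pecam1 and Emcn, by 0.18 to 0.25 on the log2 scale) and 4 of 12 mural markers (Myl9, Anpep, Notch3 and Rgs5, by 0.14 to 0.59). Also higher were 7 of 14 microglial markers, with Csf1r, C1qc, Olfml3 and Tmem119 at 0.22 to 0.34, and 0 of each list were lower. Pecam1, Emcn and Rgs5 lay close to the threshold (edgeR adjusted p = 0.0439, 0.0494 and 0.0435). Those 4 microglial markers had edgeR adjusted p of 0.00144 to 0.00362. Of 7 perivascular macrophage markers 0 passed, with Mrc1 at 0.62 and Ms4a7 at 0.63 (edgeR adjusted p = 0.099 and 0.132). Of 11 oligodendrocyte markers 0 passed, with Opalin at -0.34 and Mal at -0.21 (edgeR adjusted p = 0.196 and 0.425). Of 6 neutrophil and blood genes 0 passed, with S100a8 at 0.74 and Ngp at 0.68 (edgeR adjusted p = 0.387 and 0.489). Of 9 neuronal markers 1 was lower, Gad1, which makes the inhibitory transmitter GABA (-0.23, edgeR adjusted p = 0.000623). In HET against WT 0 genes of any list passed by edgeR, and 0% of all genes tested did.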

How the data were processed

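The authors deposited 1 table of gene counts without normalisation: its values are whole numbers with unequal totals. Trim Galore 0.4.3, HISAT2 2.0.5 and GRCm38 are named in the submitters' processing notes. How reads were counted, with which strand setting and annotation, is not given in the sources used here. Rows were summed per identifier (25965 rows, 57 identifiers in several rows). No 2 libraries agreed within sampling noise (lowest chi-square per degree of freedom 6.37 in 378 pairs).

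Counts were filtered with filterByExpr, scaled by TMM and tested with edgeR 4.0.16 in R 4.3.3 (robust glmQLFit, glmQLFTest, two-sided, a mean per genotype, no covariate), and with DESeq2 1.42.0 as an alternative. The fit was checked on simulated counts. Correlations used log2 CPM with a prior count of 2. Exon lengths came from GENCODE vM21. Members, lists and tests were chosen with earlier results of these data known. The rule for list genes names up to 4 called members, or the 2 with the smallest p where none was called. The genes Tf, Serpina3h, Map2, Hbb-bs and Hbb-bt were not analysed here, and 1 gene that the rule for likeness selects is not reported here. Intervals cover the spread between these libraries.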

Additional observations from a re-analysis of the deposited data

Results flagged for a closer look

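Of 60 sets of values checked (10 genes and 10 marker sums in 3 genotypes), 12 held a library far from the others of its genotype. Chance flags about 1 set in 20 where values follow a normal distribution, which low counts such as those of Lcn2 may not. The 12 sets share libraries and are not independent. In HOM 3 these were Vim at 64.91 CPM (next 37.65), Cd44 at 3.531 CPM (next 2.005), Osmr at 7.811 CPM (next 6.351), the meningeal sum at 1371 CPM (next 783.7) and the perivascular macrophage sum at 25.58 CPM (next 15.83). In HET 4 they were Osmr at 9.097 CPM (next 6.634), Lcn2 at 0.7191 CPM (next 0.1992) and the neutrophil and blood sum at 49.39 CPM (next 34.67). The others were Lcn2 at 1.09 CPM in HOM 9 (next 0.3255), the microglia sum at 740.9 CPM in HOM 10 (next 652.9), Serpina3n at 24.88 CPM in HET 10 (next 20.23) and S1pr3 at 7.012 CPM in WT 5, below the next WT library at 8.219.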

How the results depend on the processing

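Aspg was called in HOM against WT under all 8 alternatives run and in all 28 fits that left out 1 library. The count of members called, 3, was 1 with no count filter, with only the 2 genotypes compared, with the replicate block and without WT 6 and HOM 3, and ran from 1 to 3 when 1 library was left out. Aspg was among the calls in each. It was 0 throughout for HET against WT and HOM against HET. Over all genes, the 1226 calls in HOM against WT became 737 with the replicate block and 509 without WT 6 and HOM 3 (595 to 1345 leaving out 1 library, lowest without WT 6). The 0 calls in HET against WT became 12 with DESeq2, 1 with at least 1 CPM in 8 libraries, 4 with only the 2 genotypes and 2 without HOM 1 and HOM 2 (0 to 3 leaving out 1 library), and the 6 calls in HOM against HET became 40 with DESeq2 (3 to 15). The cause was not tested. The median r of 0.273 was 0.313 with genotype means left in (0.140 to 0.307 leaving out 1 library).

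Signs turned only for values near 0. Osmr had a log2 fold change of -0.0289 in HOM against WT without WT 6 and HOM 3, and of 0.0087 in HOM against HET without HOM 1 and HOM 2. Leaving out 1 library, HOM against WT ran from -0.00971 to 0.0885 for Osmr and from -0.0124 to 0.0851 for Serpina3n, HOM against HET from -0.0689 to 0.0620 for Osmr and from -0.0948 to 0.00487 for Serpina3n, and HET against WT from -0.0705 to 0.0142 for Cd44, from -0.0231 to 0.106 for Osmr and from -0.0501 to 0.192 for Steap4. The replicate numbers of the titles did not pair the libraries: same-numbered deviations correlated at -0.158 to 0.126 between HOM and WT, -0.048 to 0.183 between HET and WT and -0.164 to 0.134 between HOM and HET, where 3 of 10 pairs were over 0.1 and 3 of 10 libraries correlated best with their own number (0 of 8 in the other two). With the replicate block Vim and Cp were not called (edgeR adjusted p = 0.105 and 0.130) and Aspg was (0.00739). Cp was also not called with DESeq2 size factors in edgeR (edgeR adjusted p = 0.0518). Counts of 4 to 33 reads limit Steap4, and the filter left Lcn2 out of the main fit.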

Other observations

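Other genes of the oligodendrocyte lineage were added after Olig1 was seen as the gene most like Aspg. Olig1 had the highest r of the 13923 genes searched, so the others had to lie below it and their contrast with Olig1 is no evidence. With genotype means removed, Aspg had an r of 0.740 with Olig1 (rho = 0.783) and 0.564 with Olig2 (rho = 0.527) over 28 libraries. It was 0.303 with Cspg4, 0.178 with Pdgfra and 0.00670 with Gpr17, genes of oligodendrocyte precursors. Gfap likewise had an r of 0.589 with Olig1. The sum of the 11 oligodendrocyte markers gave an r of 0.346 with Aspg (rho = 0.395) and 0.543 with Gfap (rho = 0.542). Olig1 itself averaged 65.8 CPM in HOM and 65.3 CPM in WT (edgeR adjusted p = 0.936), or 0.01 on the log2 scale with an SE of 0.06. Pdgfra and Gpr17 were called higher in HOM than in WT, by 0.21 and 0.30 on the log2 scale (adjusted p = 0.00233 and 0.0227 by edgeR), while Cspg4 stood at 0.20 and Olig2 at 0.15 (adjusted p = 0.0583 and 0.217 by edgeR).

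C4b and A2m, which varied with Gfap between libraries, had log2 fold changes of HOM over WT of 0.06 (SE 0.22) and 0.17 (SE 0.30) and did not pass (edgeR adjusted p = 0.895 and 0.771). Ikbke, the gene most like Steap4, stood at 1.44 CPM in HOM and 1.05 CPM in WT, 0.46 on the log2 scale (adjusted p = 0.00451 by edgeR), and was singled out after its values were seen.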
